A study of Triticum aestivum and Triticum monococcum subsp. aegilopoides x Triticum urartu with 8 samples.

Results

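In leaves of wheat hybrids, 41 transcripts were at least 8-fold dimmer in type I necrosis than in the wild-type hexaploid hybrid as measured, while in the diploid wheat their mean level in type IV necrosis stayed within 2-fold of its wild type. The transcripts were selected by their signals on the 8 arrays of the study, out of 37826 transcript probes in all. The level of a probe is log2 of its processed intensity less the 75th percentile of its array, so that a level of 0 is the array's upper quartile and a step of 1 is a factor of 2. A member had a type I change (mean level in type I necrosis less hexaploid wild type) of -3 or lower and a type IV change (type IV necrosis less diploid wild type) between -1 and 1. It was also well above background on both hexaploid wild-type arrays and on all 4 diploid arrays, by the scanner software's flag, and had no outlier flag on any array. These values chose the members, so the changes given below describe them and no test of the changes is offered as support.

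The arrays, 2 per group, measured total RNA of the first leaf of untreated seedlings grown for 1 week at 23 °C. The groups are hexaploid hybrids (Triticum aestivum, common wheat) with type I necrosis, hexaploid hybrids labelled wild type, hybrids of Triticum monococcum subsp. aegilopoides and Triticum urartu with type IV necrosis, and hybrids of that same cross labelled wild type. The wild-type plants are therefore hybrids too, and the labels used here do not give the parental lines. The design text speaks of independent experiments, but no label ties the 2 arrays of a group to separate plants, so the p-values rest on array-to-array spread alone, and that spread may be technical. Hexaploid and diploid arrays lay on separate slides, and within a slide the necrosis and wild-type arrays took different positions, so that wheat and slide, and necrosis and position, cannot be told apart. Type I necrosis was arrayed only in the hexaploid and type IV only in the diploid. Necrosis type therefore cannot be told apart from wheat either.

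Hybrid necrosis is a die-back of leaf tissue that appears in the offspring of healthy parents when complementary genes from each parent meet, with no pathogen needed. It is regarded as a form of autoimmunity, in which the plant's own defence system is switched on. Necrotic leaves lose photosynthetic tissue, and wheat has several types of the disorder that differ in their genetics and symptoms. The array names its probes mostly by contig, clone or sequence database number, a few by gene symbol, and gives no product. None of its transcript probe names was found in the RefSeq gene table of Chinese Spring wheat (assembly IWGSC CS RefSeq v2.1). The members therefore carry no gene function here, and the leaf tissue could not be checked against marker genes. The 6 probes named for cold and dehydration genes (RD29A, RD29B, cor47, Wcor15, DREB2A and DREB2B) held 0 members.

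The number of probes well above background ran from 27437 to 28765 on the hexaploid arrays and from 23626 to 24556 on the diploid arrays. No transcript spot was saturated. The precision of each value is limited by having 2 arrays per group. In leaf RNA, a lower level can come from fewer cells that hold the transcript or from less RNA per cell, and these cannot be told apart.

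Few probes combined a large type I loss with a small type IV change. Of the 21224 probes that met the signal and flag criteria, 279 were at -3 or lower in type I. Of these, 151 were below -1 in type IV and 87 were above 1. The 41 members were the remaining 14.7%, whereas 68.7% of the 20945 criteria-meeting probes above -3 in type I lay within 1 of diploid wild type. The median change of the members was -4.32 in type I and 0.06 in type IV, beside 0.06 and -0.05 over the 21224 probes. Members therefore sit in a thin band between the larger sets that moved in type IV as well.

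**Figure D1:**
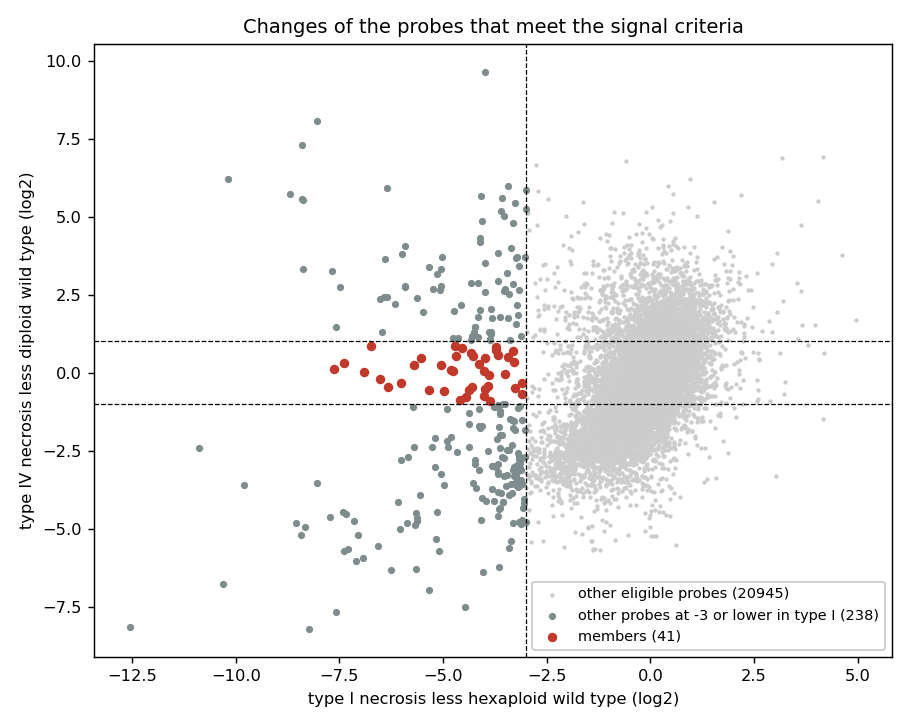
Change in type IV necrosis (vertical axis, log2, less diploid wild type) against the change in type I necrosis (horizontal axis, log2, less hexaploid wild type) for the 21224 probes that met the signal and flag criteria. Dashed lines mark the thresholds of -3, -1 and 1; the 41 members (red) fill the band between, with 151 dark grey probes below it and 87 above it.

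All 41 members had both type I arrays below both hexaploid wild-type arrays, as the rule all but fixes; such a separation was found at 38.3% of the 21224 probes. The size of the type I change ran from -7.62 to -3.09. Among the 23 members that were well above background on both type I arrays, 11 were at least 16-fold lower, 5 at least 32-fold, 4 at least 64-fold and 1 at least 128-fold. Over all 41 members, the mean level in hexaploid wild type ranged from -5.09 to 4.38 with a median of -1.58, below the -0.59 of all criteria-meeting probes. The group thus runs from transcripts near the detection limit to some of the bright ones of the leaf.

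**Figure D2:**
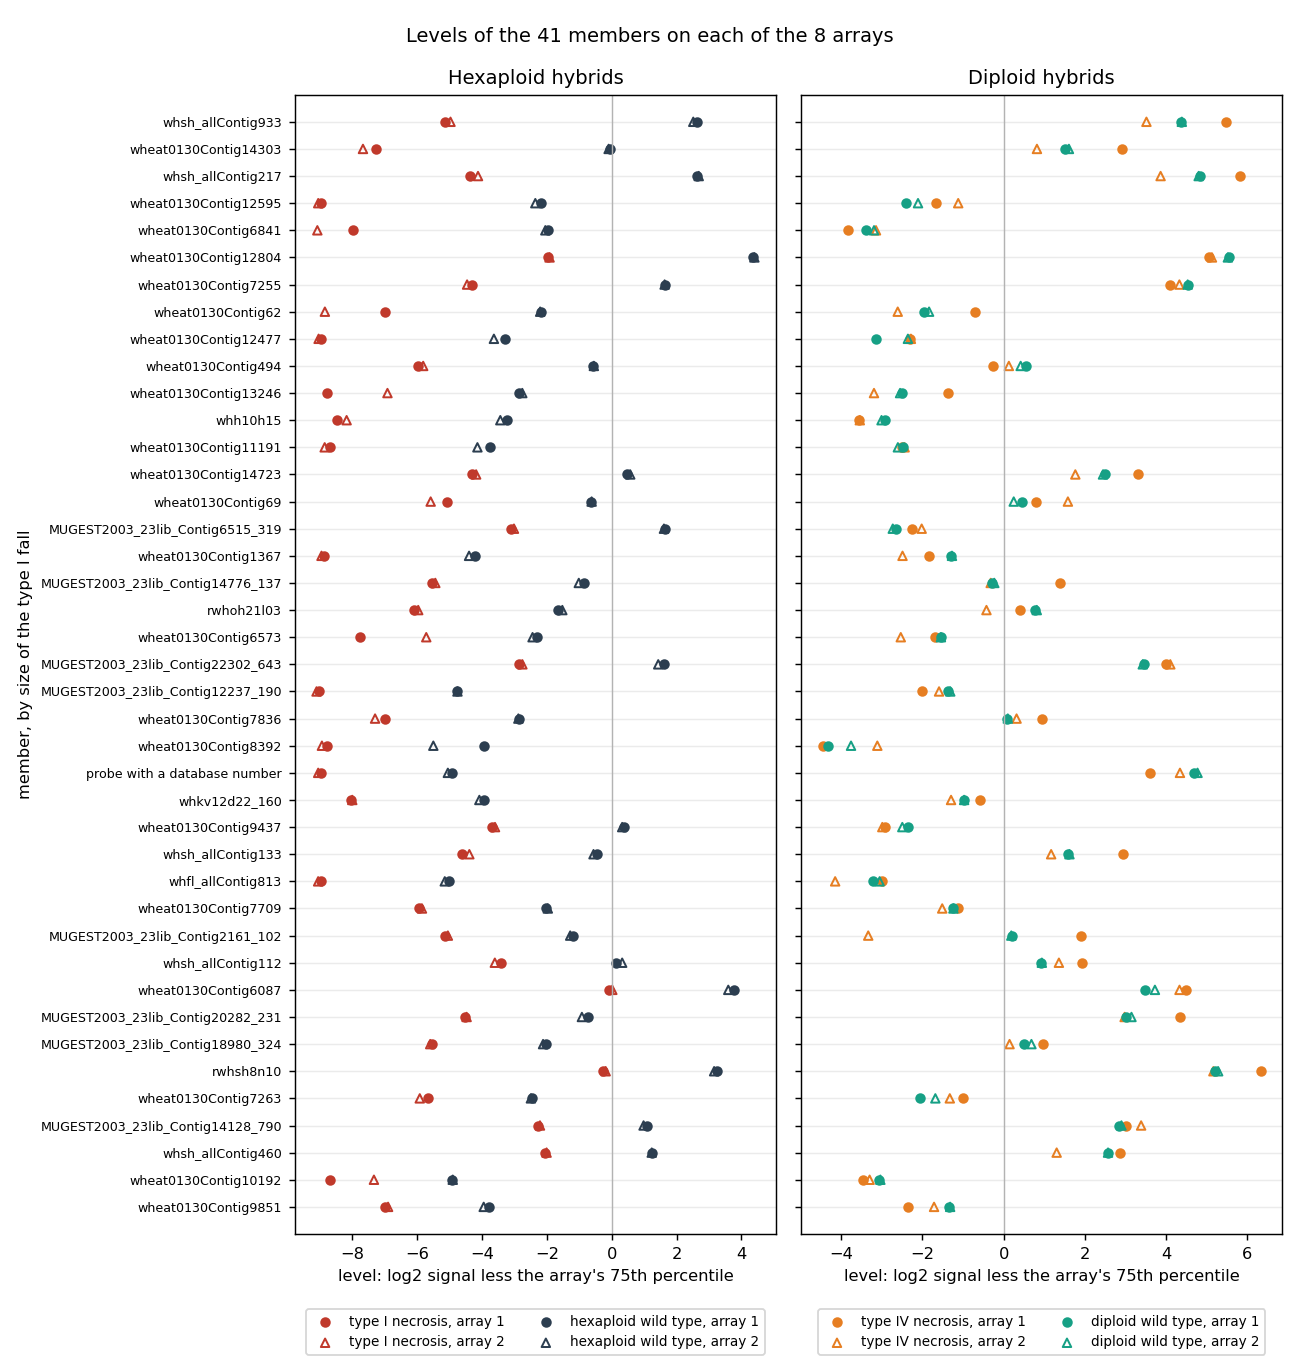
Level of each of the 41 members (rows, by size of the type I change) on each of the 8 arrays, as log2 intensity less the array's 75th percentile; circles are array 1 and triangles array 2 of a group. In the hexaploid panel the mean of the type I points stands over 3 below that of wild type, while in the diploid panel the type IV points lie around the wild-type points, often 1 on each side.

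How far a member can be called lost depended on the detection limit. In type I necrosis 23 members were well above background on both arrays, 1 on a single array and 17 on neither. The 23 that could still be measured are lowered rather than absent. Their median level was -4.39 in type I necrosis and 0.35 in hexaploid wild type. The 17 that could not be measured had type I intensities of 4.05 to 19.1, against 38.4 to 1624 in hexaploid wild type. For these only a bound can be given, which sets hexaploid wild type against the lowest signal well above background on each type I array (23.3 and 20.1 in intensity) or the probe's own signal where that is higher. A higher limit in place of that lowest signal would make the bound smaller. By the bound as given, 8 of the 17 were at least 8-fold lower, 4 of them at least 16-fold and 1 at least 64-fold. The other 9 had bounds of 3.14-fold to 7.38-fold, short of the 8-fold that the measured values give.

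Among the members that could be measured on all 8 arrays, whsh_allContig933 had the largest type I change. It was at -5.13 and -4.97 in type I necrosis, against 2.63 and 2.51 in hexaploid wild type, a difference of -7.62 (197-fold lower). Its unscaled intensity averaged 69.8 in type I necrosis and 10160 in hexaploid wild type. In the diploid the same probe was one of the bright ones, at 5.48 and 3.52 in type IV necrosis and 4.36 and 4.39 in diploid wild type. The type IV arrays lie on either side of the wild-type pair, 3.90-fold apart, so its type IV change of 0.12 is the mean of a higher and a lower value.

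The next by size, whsh_allContig217, followed the same profile. Its levels were -4.37 and -4.12 in type I necrosis, against 2.62 and 2.68 in hexaploid wild type (119-fold lower). They were 5.83 and 3.87 in type IV necrosis, against 4.84 and 4.81 in diploid wild type. Again type IV array 1 was above and array 2 below the wild-type arrays, and the mean change was 0.03.

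The brightest member in hexaploid wild type, wheat0130Contig12804, behaved differently in the diploid. It stood at -1.96 and -1.92 in type I necrosis, against 4.37 and 4.40 in hexaploid wild type, which is 79.9-fold lower. Mean intensities were 605 in type I necrosis and 35640 in hexaploid wild type. In type IV necrosis it was at 5.05 and 5.13, against 5.56 and 5.53 in diploid wild type. Here both type IV arrays were below the wild-type pair, by 0.45 on average, and the replicates of every group differed by less than 0.1.

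A similar profile was found for wheat0130Contig7255 and wheat0130Contig494. The first was at -4.31 and -4.46 in type I necrosis, against 1.63 and 1.63 in hexaploid wild type (64.7-fold lower). Its type IV levels of 4.10 and 4.33 were under the 4.54 and 4.53 of diploid wild type. For wheat0130Contig494 the levels were -5.96 and -5.81 in type I necrosis and -0.56 and -0.55 in hexaploid wild type, and the type IV change was -0.54. In both probes, the replicates of each group differed by less than 0.4, and both type IV arrays were below the diploid wild-type pair.

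Other members were slightly higher in type IV necrosis on both arrays. MUGEST2003_23lib_Contig6515_319 was at -3.11 and -3.01 in type I necrosis, against 1.65 and 1.61 in hexaploid wild type (25.8-fold lower), and at -2.26 and -2.02 in type IV necrosis, against -2.64 and -2.73 in diploid wild type. MUGEST2003_23lib_Contig22302_643 was at -2.85 and -2.75 in type I necrosis, against 1.60 and 1.43 in hexaploid wild type (a change of -4.32). In the diploid it was at 4.0 and 4.11 in type IV necrosis, against 3.46 and 3.43 in wild type. For wheat0130Contig69 the levels were -5.08 and -5.58 in type I necrosis, against -0.63 and -0.62 in hexaploid wild type, and its type IV change of 0.84 came close to the upper end of the allowed range.

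Further members measured on all arrays were wheat0130Contig14723, MUGEST2003_23lib_Contig14776_137, rwhoh21l03 and wheat0130Contig9437. The first was at -4.30 and -4.18 in type I necrosis, against 0.49 and 0.57 in hexaploid wild type (27.3-fold lower). The second was at -5.54 and -5.44 in type I necrosis, against -0.87 and -1.02 in hexaploid wild type (23.3-fold lower). In these 2 probes the type IV arrays were on both sides of diploid wild type, with 3.30 and 1.77 in type IV necrosis against 2.49 and 2.45 in diploid wild type for the first, and 1.38 and -0.32 in type IV necrosis against -0.29 and -0.23 in diploid wild type for the second. The other 2 had both type IV arrays below diploid wild type. Of these, rwhoh21l03 was at -6.10 and -5.97 in type I necrosis, against -1.65 and -1.52 in hexaploid wild type (21.8-fold lower), with a type IV change of -0.80. For wheat0130Contig9437 the levels were -3.70 and -3.60 in type I necrosis and 0.38 and 0.32 in hexaploid wild type, a change of -4.0, and the type IV change was -0.53.

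The 2 other bright members had smaller losses. wheat0130Contig6087 was at -0.10 and 0.02 in type I necrosis, against 3.76 and 3.59 in hexaploid wild type (13.1-fold lower), and at 4.49 and 4.33 in type IV necrosis, against 3.47 and 3.73 in diploid wild type. rwhsh8n10 was at -0.27 and -0.19 in type I necrosis, against 3.24 and 3.16 in hexaploid wild type (10.8-fold lower), and at 6.33 and 5.17 in type IV necrosis, against 5.21 and 5.29 in diploid wild type. After that loss both stayed close to the upper quartile of the type I arrays.

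Of the 17 members not well above background in type I necrosis, wheat0130Contig14303 had by far the highest hexaploid wild-type level. It was at -7.27 and -7.67 in type I necrosis, against -0.06 and -0.10 in hexaploid wild type, and thus at least 101-fold lower. In type IV necrosis its levels were 2.91 and 0.82, against 1.52 and 1.61 in diploid wild type, again on both sides. The next bounds belonged to wheat0130Contig6841 (at least 26.6-fold lower), wheat0130Contig62 (at least 23.3-fold) and wheat0130Contig12595 (at least 22.3-fold). These 3 were much dimmer, at -2.05 and below on the second hexaploid wild-type array. The bounds of wheat0130Contig13246, whh10h15, wheat0130Contig12477 and wheat0130Contig11191 were at least 15.3-fold, 10.6-fold, 9.66-fold and 6.92-fold lower.

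In the diploid these dim members were of every kind. wheat0130Contig12595 was at -1.67 and -1.12 in type IV necrosis, above the -2.40 and -2.11 of diploid wild type. whh10h15 was at -3.57 and -3.55 in type IV necrosis, below the -2.93 and -3.01 of diploid wild type. wheat0130Contig12477 was at -2.31 and -2.29 in type IV necrosis, barely above the higher of -3.15 and -2.36 in diploid wild type. In wheat0130Contig6841 array 1 was the lower one, with -3.83 and -3.15 in type IV necrosis against -3.38 and -3.19 in diploid wild type. In wheat0130Contig62 it was the higher one, with -0.71 and -2.61 in type IV necrosis against -1.97 and -1.84 in diploid wild type.

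Type I values at background had a wider spread. For wheat0130Contig62 they were -6.98 and -8.84, for wheat0130Contig13246 -8.79 and -6.91, and for wheat0130Contig6573 -7.75 and -5.72, of which the second was well above background and the first was not. In all, the type I arrays differed by more than 1 in 5 members, 4 of them among the 17. At the 23 members measured on both type I arrays the replicates differed by at most 0.50. In hexaploid wild type the replicates differed by more than 1 in a single member, wheat0130Contig8392, at -3.94 and -5.50, which is named here for that difference.

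The 13 members that fell outside the naming rule, wheat0130Contig8392 among them, had type I changes of -4.30 to -3.29 and type IV changes of -0.76 to 0.71. Their mean hexaploid wild-type levels ran from -5.09 to 1.04. One of them, named by a sequence database number, stood apart in the diploid, where it was at 3.59 and 4.34 in type IV necrosis and 4.69 and 4.78 in diploid wild type. In the hexaploid the same probe was at -8.96 and -9.05 in type I necrosis, not well above background, and at only -4.93 and -5.05 in wild type, so its bound was 3.37-fold. It was singled out after its values were seen, and its levels in the 2 wheats come from separate slides.

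By measured value, the members nearest the type I threshold were wheat0130Contig9851 (-3.09), wheat0130Contig10192 (-3.09) and whsh_allContig460 (-3.26). Neither type I array had the first 2 well above background, and they had bounds of 7.38-fold and 3.55-fold, so their place relative to the threshold is not settled. Just outside lay MUGEST2003_23lib_Contig3138_694 (-2.97), rwhdl25g06 (-2.86, likewise not well above background in type I) and wheat0130Contig6442 (-2.86). At the lower end of the type IV range MUGEST2003_23lib_Contig2161_102 (-0.91) and wheat0130Contig1367 (-0.87) were inside, with wheat0130Contig11723 (-1.02) and MUGEST2003_23lib_Contig25625_1134 (-1.02) outside. At the upper end wheat0130Contig12595 (0.86) and wheat0130Contig69 (0.84) were inside, with MUGEST2003_23lib_Contig10202_457 (1.03) and wheat0130Contig6061 (1.04) outside.

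In the diploid, the members' small mean change covered 3 kinds of behaviour. In 10 members both type IV arrays were above both diploid wild-type arrays, with a median change of 0.66, and this was so for 40.5% of the 21224 probes. In 12 members both were below, with a median change of -0.55, against 45.0% of the probes. In 18 members the type IV arrays lay on opposite sides of the wild-type pair, against 6.0% of the probes. In 16 of the 18 array 1 was above and array 2 below. Over the 21224 probes 600 lay this way and 673 the reverse way. The last member, wheat0130Contig11191, had type IV levels of -2.50 and -2.44 that met the range of -2.48 and -2.61 in diploid wild type. Since the rule limits the mean type IV change, it also shifts these shares. Among the 14395 other criteria-meeting probes whose type IV change lay within 1, 8.61% had type IV arrays on opposite sides, compared with 43.9% of the members.

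The disagreement between the type IV arrays was large for these transcripts. In 14 members (34.1%) they differed by more than 1, that is, by over 2-fold, against 2.93% of the 21224 probes and 1.47% of the 14395 probes just described. Array 1 was the higher one in 13 of the 14, and in 578 of the 622 criteria-meeting probes that differed by more than 1. Differences of that size were also frequent in the other 238 probes at -3 or lower in type I (25.6%). They were thus also present at probes whose type IV change exceeded 1 in either direction. The median difference between replicates over the members was 0.69 in type IV necrosis and 0.06 in diploid wild type, and 0.12 in type I necrosis and 0.10 in hexaploid wild type. Over the 21224 probes the type IV value was 0.21.

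The extreme case was MUGEST2003_23lib_Contig2161_102. It had levels of 1.91 and -3.34 in type IV necrosis, 38.0-fold apart, against 0.21 and 0.19 in diploid wild type. Its mean change of -0.91 met the rule although the type IV arrays singly were at 1.72 and -3.53 from the diploid wild-type mean. In the hexaploid it was steady, at -5.14 and -5.05 in type I necrosis, against -1.18 and -1.28 in wild type. Taking each type IV array by itself, 23 of the 41 members were within 1 of the diploid wild-type mean on both arrays, and 8 within 0.5. Of the 21224 criteria-meeting probes, 13118 were within 1 on both arrays and 7227 within 0.5. Among the 14395 other probes with a mean type IV change within 1, these counts were 13095 and 7219. The reason for the difference between the type IV arrays was not tested.

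**Figure D3:**
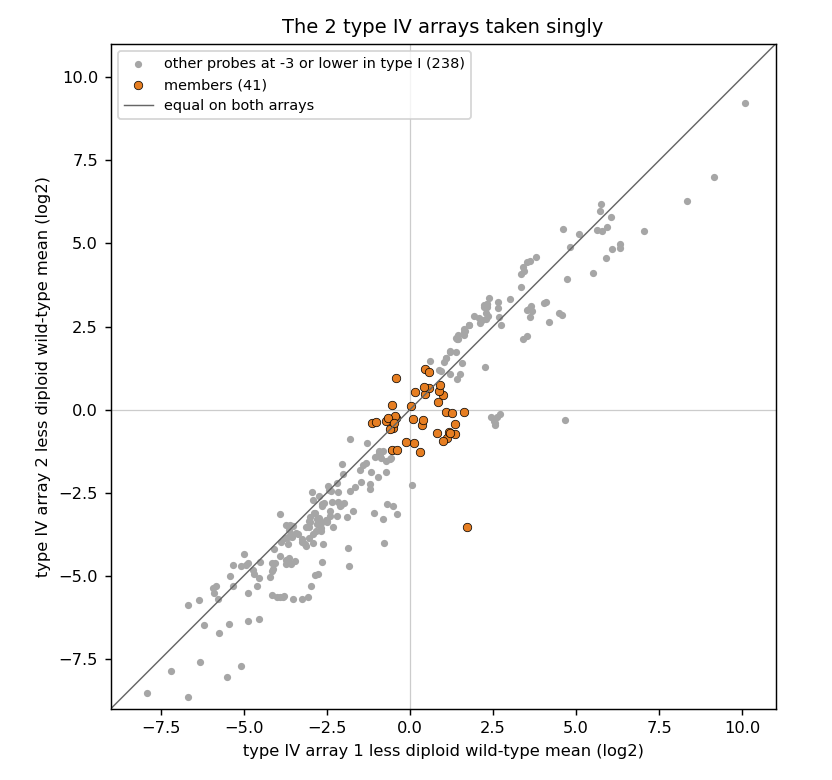
Level on type IV array 2 (vertical) against type IV array 1 (horizontal), each less the diploid wild-type mean (log2), for the 41 members (orange) and the other 238 probes at -3 or lower in type I (grey). Many members lie under the line of equal values, in the quadrant where array 1 is above and array 2 below wild type; the member farthest from the line is MUGEST2003_23lib_Contig2161_102.

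Fitted across all probes with limma, and called at a Benjamini-Hochberg adjusted p under 0.05, 40 of the 41 members were lower in type I necrosis, beside 19.6% of the 28520 probes tested in that comparison. This count only repeats the choice of the members. The exception was MUGEST2003_23lib_Contig2161_102, whose standard error of 1.55 carries the spread of its type IV arrays. With the hexaploid arrays fitted alone all 41 were called, which again only repeats the choice of the members. No share of all probes is given for that fit.

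By the same fit, and again as a description since the rule bounded this change, some members were also called in type IV. In type IV necrosis 17 of the 41 members were called: 7 higher (33.9% of the 24631 probes tested were) and 10 lower (39.1% were). The higher ones include wheat0130Contig12595, with a change of 0.86 (SE 0.20), and wheat0130Contig6087, with 0.81 (SE 0.12). The lower ones include wheat0130Contig1367, with -0.87 (SE 0.21), rwhoh21l03, with -0.80 (SE 0.26), and whh10h15, with -0.59 (SE 0.13). A member that was not called cannot be taken as unchanged, because where the type IV arrays disagreed the standard error was large (0.59 for whsh_allContig933). Fitted on the diploid arrays alone, 9 members were called. No share of all probes is given for that fit, so this count cannot be weighed against the probes as a whole. Without type IV array 1 or 2 the members' median type IV change was -0.32 or 0.40, beside 0.06 with all arrays. Without either diploid wild-type array it was 0.04. Calls from these fits are not weighed, since a group left with 1 array adds no spread of its own. Their counts appear only in the list of processing alternatives below. The difference of the effects, type IV less type I, was called positive for 40 members, beside 18.7% of the 29589 probes tested, and both of its parts entered the rule.

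The band around 0 in type IV necrosis also rested on the scaling. Scaled on the 320 E1A spike-in control spots in place of the 75th percentile, all 41 members had a positive type IV change, with a median of 1.21, as did 80.4% of the 24631 probes tested. Of the members 25 were above 1, beside 54.2% of those probes, and 33 were called higher, beside 67.6%. The median type IV change of all probes tested was 1.11 with this scaling and -0.05 with the percentile; the scaling adds the same constant to every probe. The type I changes were less affected, with a median of -3.92 with spike-ins and a range of -7.23 to -2.69. With spike-in scaling the rule itself found 34 probes, 13 of them among the 41. With normexp background correction, which started from the median spot signal in place of the processed one and adds an offset to every value, the median type I change was -2.98 and the rule found 22 probes, 19 of them among the 41.

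**Figure D4:**
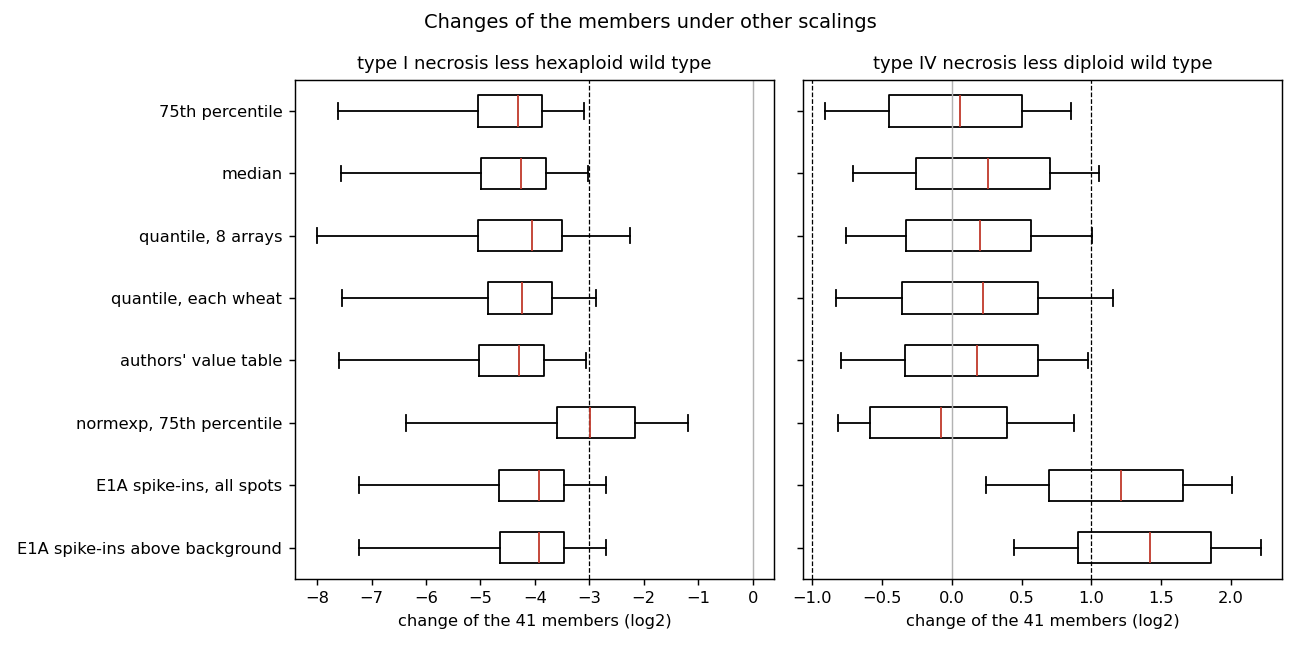
Change of the 41 members (log2) in type I necrosis less hexaploid wild type (left) and type IV necrosis less diploid wild type (right) under 8 ways of scaling; boxes span the quartiles, red lines are medians and whiskers reach the lowest and highest member. Dashed lines mark the rule's thresholds, and with spike-in scaling the type IV medians (1.21 and 1.42) lie above the upper one.

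The names of the probes give a further description. By the start of the name, 22 members were wheat0130Contig probes (53.7%, against 42.64% of the criteria-meeting probes) and 8 were MUGEST2003 probes (19.5%, against 17.3%). Probes named whsh or rwhsh made up 6 members (14.6%, against 4.3%), and 64 of all 279 probes at -3 or lower in type I (22.94%). Besides whsh_allContig933, whsh_allContig217, whsh_allContig460 and rwhsh8n10, these were whsh_allContig133 and whsh_allContig112, which are named here for their prefix. In 5 of the 6 type IV array 1 was above the wild-type pair and array 2 below it. This was so in 16 of all 41 members and in 600 of the 21224 criteria-meeting probes. No such share is given for the other probes with this prefix. The sixth, whsh_allContig112, was above on both, at 1.93 and 1.36 in type IV necrosis against 0.92 and 0.94 in diploid wild type. The labels and files used here do not explain the prefix.

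For 1 member a probe of nearly the same name was found. The probe whoh21l03, which differs from rwhoh21l03 by the leading r, was at -8.79 and -8.94 in type I necrosis, against -4.75 and -4.71 in hexaploid wild type, and at -3.76 and -4.34 in type IV necrosis, against -2.94 and -2.85 in diploid wild type. It was not well above background in type I necrosis. Its measured changes were -4.13 in type I and -1.16 in type IV, beside -4.45 and -0.80 for the member. The type IV change puts it outside the set.

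Local background did not set the members apart. Outlier flags could not be compared, since the rule had removed every probe with one. Their median local background was 27.0 and 27.0 on the type I arrays and 28.5 and 30 on the hexaploid wild-type arrays, against 27.5, 28.0, 29.0 and 29.5 over all criteria-meeting probes in the same order of arrays. A flag on the local background, on any array, was present for 5 members (12.2%) and for 12% of those probes. The members were spread over rows 1 to 519 and columns 7 to 82 of the array.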

How the data were processed

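Per the file headers, the deposited spot intensities were made with Agilent Feature Extraction 10.10.1.1 (9.5 per the submitters' processing notes) from 1-colour Cy3 arrays. The authors' value table holds the same intensities, each array times 1 factor (0.926 to 3.12), and served as an alternative. Flags and the processed intensity were read from the scanner files. Control spots (1417) and 68 probes with an outlier flag were left out of the fits. Log2 intensities less the array's 75th percentile were fitted with limma 3.58.1 in R 4.3.3, with a mean per group, 4 residual and 1.73 prior degrees of freedom. A probe was tested if either group compared had both its arrays well above background, and p-values were adjusted by Benjamini-Hochberg over all probes tested, two-sided. The procedure was also run on simulated data, with changes in type I only and the same spread of a probe on all arrays. That does not cover a spread that differs between the wheats. The members' median SD was 0.10 on the hexaploid and 0.36 on the diploid arrays. Normexp (offset 50) used the median spot signal, since no mean signal was among the columns. The members and the name lists were chosen with earlier results of these data known. Named are the 12 largest type I losses measured on all arrays, the 8 largest below background, the 6 brightest, those nearest each threshold, and members whose replicates differ by over 2.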

Additional observations from a re-analysis of the deposited data

Results flagged for a closer look

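By the test of the difference itself (limma, Benjamini-Hochberg), the effect of necrosis differed between the wheats for 40 of the 41 members, by 2.39 to 7.75 (type IV less type I, median 4.44). For MUGEST2003_23lib_Contig2161_102 the difference of 2.95 was not called. Over all 29589 probes tested, 18.7% were called in that direction. Both effects had entered the choice of the members, so this count is a description. The wheats also lay on separate slides.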

How the results depend on the processing

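The rule found 41 probes. It found 22 with normexp, 34 with E1A spike-in scaling, 33 (11 of the 41) when only the 159 E1A spots above background on all arrays were used, and 40 to 53 without any 1 array; 29 of the 41 members were found again without type IV array 2 and 34 without type IV array 1. A type I fall of at least 2 or 4 gave 81 or 26 probes, a type IV change within 0.5 gave 21, detection on all 8 arrays 23, and both type IV arrays singly within 1 gave 23. The last, and the percentile over unflagged spots (41 probes), were added after seeing the data, as was the restricted spike-in set. The median type I change was -2.98 with normexp, -4.05 with quantile normalization over 8 arrays, -3.92 with either spike-in scaling and -4.40 to -4.27 without 1 array. The median type IV change was 1.21 and 1.42 with the spike-in scalings and -0.32 to 0.40 without 1 array. Members called in type IV (17) numbered 33 with either spike-in scaling, 9 with the diploid arrays alone and 7 to 29 without 1 array; for type I (40) and for the difference (40) they stayed at 37 to 41 under all alternatives run. The counts called without 1 array do not measure robustness, since a group left with 1 array adds no spread of its own. With the replicate block the counts were 15 for type IV and 40 for both others. The block matched arrays by their number alone. The correlation of the deviations of same-numbered arrays was -0.08 in the hexaploid and -0.01 in the diploid. With 2 arrays per group this cannot show whether such arrays were paired. A slide term adds nothing, since each wheat lies on its own slide. Spike-in scaling adds the same constant to every probe; for the other alternatives the cause of a shift was not tested, and normexp changed the signal used, the background correction and the offset together.

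The type IV change turned sign for some members called there. With spike-in scaling it was 0.70 for wheat0130Contig12804 (0.91 with the restricted spots), 0.83 (1.03) for wheat0130Contig7255, 0.61 (0.81) for wheat0130Contig494, 0.56 (0.76) for whh10h15, 0.28 (0.48) for wheat0130Contig1367, 0.35 (0.56) for rwhoh21l03, 0.62 (0.83) for wheat0130Contig9437 and 0.45 (0.66) for wheat0130Contig9851. It was 0.067 and 0.074 with quantile normalization over 8 arrays and within each wheat for wheat0130Contig12804, and -0.017 with normexp for MUGEST2003_23lib_Contig6515_319.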
